A study of Mus musculus with 12 samples.

Results

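Duox2 (ENSMUSG00000068452), Duoxa2 (ENSMUSG00000027225), Nox1 (ENSMUSG00000031257) and Cyba (ENSMUSG00000006519), genes of the NADPH oxidases of the gut lining, were followed in the epithelium of the mouse small intestine after experimental stroke. They were picked by name, with their pMCAO against sham difference already known, from a table of 15855 genes measured by RNA sequencing. Of these 4 genes, 3 had a row in the table and all 3 of those passed the filter on low counts, while Nox1 was not analysed here. For Duox2, Duoxa2 and Cyba the difference between the groups is therefore given as a description with no p-value.

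The samples came from male C57BL6/J mice of 8 to 12 weeks that underwent either permanent middle cerebral artery occlusion (pMCAO), in which a filament closes a main artery of the brain and is left in place, or the same operation without occlusion (sham). At 24 h after surgery the whole small intestine was collected, and live epithelial cells were sorted by flow cytometry as EpCAM+ (an adhesion molecule on epithelial cells) and 7AAD- (7AAD is a dye that enters dead cells). There were 7 sham and 5 pMCAO samples. Their titles carry library numbers from 58 to 72, and libraries up to 61 (3 sham, 1 pMCAO) are called the earlier libraries and those from 62 (4 sham, 4 pMCAO) the later ones.

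NADPH oxidases pass electrons from NADPH across a membrane to oxygen. Duox2, the dual oxidase of the gut, releases hydrogen peroxide at the apical surface of epithelial cells and reaches that surface only together with its maturation factor Duoxa2. Nox1 makes superoxide and needs the small membrane subunit p22phox, the product of Cyba, along with the organiser Noxo1 and the activator Noxa1, whereas Duox2 does not need p22phox. In the intestine Duox2 is known as a defence gene that responds to microbes at the mucosa.

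Total counts per sample ranged from 7418730 to 31925579, and mitochondrial genes took between 24.16% and 62.02% of them. Levels are given as CPM, read counts set relative to the size of each library, after scaling by TMM factors, which correct for differences in composition between libraries. Depending on the library, 3 counts (the floor used for a gene at 0) were worth 0.0691 to 0.724 CPM. The earlier libraries stood apart from the later ones, with 1687 of 14462 genes called in that contrast, 1213 (8.39%) higher and 474 (3.28%) lower in later libraries. All 6 epithelial markers were detected in every sample, with Epcam at 1673 ± 548 CPM in sham (SD, n = 7) and 1266 ± 710 CPM in pMCAO (SD, n = 5). The 10 leukocyte markers were also detected, with a summed level of 35.98 to 304 CPM in sham and 54.9 to 195 CPM in pMCAO.

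Duox2 and Duoxa2 lie head to head on chromosome 2 (GRCm38, GENCODE M21). Duox2 spans chr2:122279247-122298449 on the minus strand and Duoxa2 spans chr2:122298900-122302885 on the plus strand, so 450 bases separate their starts. The paralogous pair follows at once, with Duoxa1 at chr2:122302191-122313730 (minus strand) and Duox1 at chr2:122315672-122347972 (plus strand), and all 4 genes fit within 68.7 kb. Cyba lies apart from them, at chr8:122424776-122432930 (minus strand), and Nox1 at chrX:134086421-134221956 (minus strand).

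**Figure D1:**
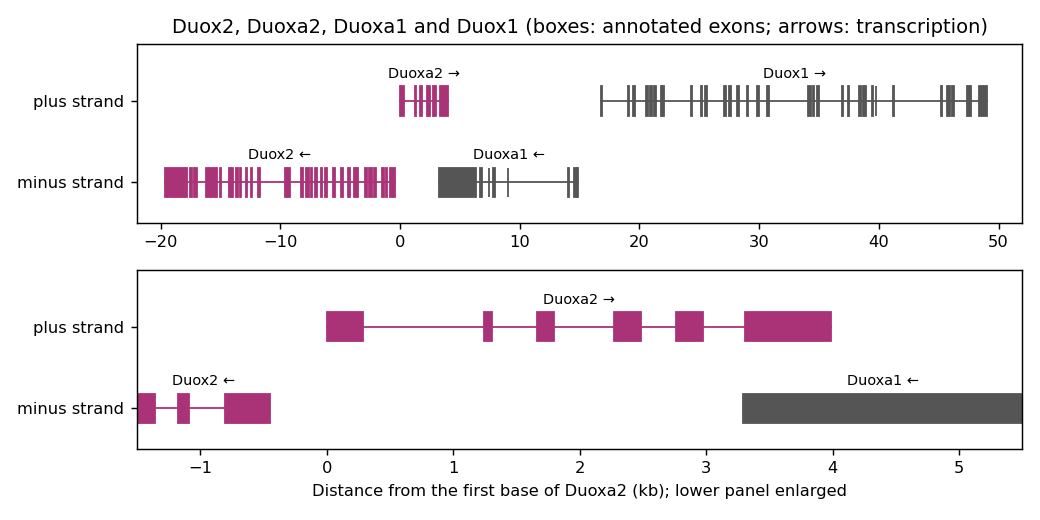
Map of the 4 dual oxidase genes, with distance from the first base of Duoxa2 in kb on the x axis and the 2 strands as rows. Boxes are annotated exons, arrows give the direction of transcription, purple marks Duox2 and Duoxa2 and grey marks Duoxa1 and Duox1. In the enlarged lower panel the last exon of Duoxa2 lies over the end of Duoxa1 on the other strand, and 450 bases separate Duox2 from Duoxa2.

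The 250 bases before Duoxa2 (chr2:122298650-122298899, plus strand, RefSeq promoter table on GRCm38.p6) are shown because they fill most of the gap that both genes share and because both genes were lower in the pMCAO samples. Capitals mark matches to TGANTCA (a loose form of the AP-1 motif), ATTTGCAT (the octamer) and TATAAA (the TATA box), in that order. The strict AP-1 motif has C or G at the centre where the loose form allows any base. The match here has A, so it is not a strict AP-1 match.
Duoxa2 upstream: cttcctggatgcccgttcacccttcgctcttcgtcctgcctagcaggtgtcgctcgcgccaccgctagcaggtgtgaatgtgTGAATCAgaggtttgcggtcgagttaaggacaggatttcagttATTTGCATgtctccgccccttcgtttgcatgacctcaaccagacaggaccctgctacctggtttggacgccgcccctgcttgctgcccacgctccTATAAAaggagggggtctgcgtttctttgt

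The TATAAA match began 30 bases before the start of Duoxa2, the octamer match 125 bases before it and the TGANTCA match 168 bases before it. Over all 32851 windows of 250 bases before a start in that table, 12.4% held TATAAA, 1.6% held the octamer and 6.75% held TGANTCA on either strand. The other motifs searched on both strands were TTCNNNGAA (STAT, 7.02% of windows) and CACGTG (E-box, 6.02%), and neither was in the Duoxa2 window. None of these motifs was in the windows before the RefSeq starts of Duox2, Cyba and Nox1, but 222 of the 250 bases of the Duox2 window lie inside the GENCODE Duox2 gene, so it covers little of the gap. All 4 genes had a window in the table. These are matches of letters and not measured binding sites.

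Duox2 was the most abundant dual oxidase gene in sham epithelium, and its level in pMCAO samples was far lower. In the 7 sham samples Duox2 stood at 284, 163, 278, 98.2, 72.1, 499 and 53.8 CPM for replicates 1 to 7, with a median of 163 CPM. In the 5 pMCAO samples it stood at 3.25, 22.7, 13.0, 7.84 and 15.0 CPM. Every pMCAO sample lay below every sham sample, so the groups did not overlap. The means were 207 ± 159 CPM in sham (SD, n = 7) and 12.4 ± 7.37 CPM in pMCAO (SD, n = 5). The log2 fold change of pMCAO over sham was -3.66 (SE 0.56, 95% interval -4.84 to -2.47) in a limma-voom fit over all genes.

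Of the 14462 genes tested, 28 (0.194%) had every pMCAO sample below every sham sample, and Duox2 was the 1 gene among the 3 analysed that did so. A log2 fold change of -1 or lower was found for 519 genes (3.59%), Duox2 and Duoxa2 among them. Since these genes were chosen with this contrast known, nothing is read from their place in it. With the thresholds used for a call (adjusted p up to 0.05 and a log2 fold change of 1 or more in either direction), limma-voom called 0 genes (0%), with 1219 at an unadjusted p under 0.05 (8.43%). On the same counts edgeR called 0 genes, with 930 at an unadjusted p under 0.05, and DESeq2 called 70. The sorted cells were measured in bulk, so fewer cells that express Duox2 and less Duox2 RNA per cell cannot be told apart.

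The sham samples varied widely among themselves. Behind those levels were 740 to 19500 Duox2 counts in sham and 38 to 971 in pMCAO, well above the floor in all 12 samples. Sham replicate 6 held the 19500 counts. The SD of Duox2 log2 CPM over the sham samples was 1.17, and 69.5% of tested genes had a smaller SD there. Leaving out each of the 12 samples in turn kept the log2 fold change between -3.97 and -3.39.

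Duoxa2, the maturation factor, was a low-count gene with the same direction. In sham replicates 1 to 7 it stood at 3.50, 1.87, 13.0, 2.47, 0.925, 14.8 and 1.96 CPM, on 44, 9, 54, 20, 16, 578 and 27 counts. In pMCAO replicates 1 to 5 it stood at 0, 1.56, 0.0921, 0 and 1.58 CPM, on 0, 67, 4, 0 and 42 counts. Sham replicates 3 and 6 were the high samples, and pMCAO replicates 1, 3 and 4 lay below all sham samples. pMCAO replicates 2 and 5 lay above sham replicate 5, so the groups overlapped.

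The means of Duoxa2 were 5.51 ± 5.81 CPM in sham (SD, n = 7) and 0.648 ± 0.846 CPM in pMCAO (SD, n = 5). The log2 fold change was -3.86 (SE 1.33, 95% interval -6.67 to -1.04). Its size rested on few libraries, with -2.91 for Duoxa2 without sham replicate 6, -4.78 without pMCAO replicate 2 and -4.60 without pMCAO replicate 5, and it was -3.00 with edgeR and -3.06 with DESeq2. A count of 0 allowed up to 0.256 CPM of Duoxa2 in pMCAO replicate 1 and up to 0.240 CPM in pMCAO replicate 4, on counting error alone.

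**Figure D2:**
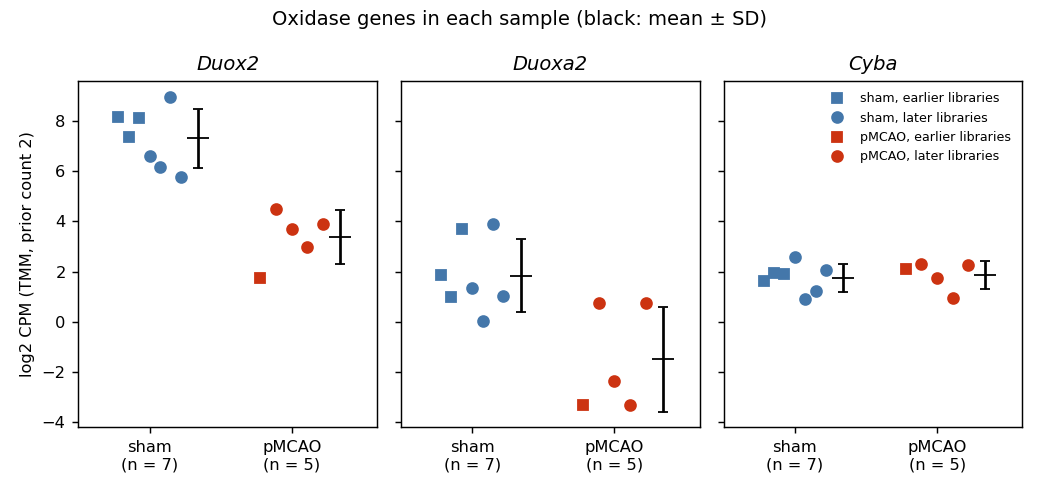
Level of Duox2, Duoxa2 and Cyba in each sample as log2 CPM (y axis) by group (x axis, 7 sham and 5 pMCAO), with squares for the earlier and circles for the later libraries and the mean ± SD in black. The groups do not overlap for Duox2, overlap in part for Duoxa2 and lie at the same height for Cyba. The lowest Duoxa2 points are the 2 libraries with 0 counts.

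Cyba, which encodes p22phox, had similar levels in both groups. In sham replicates 1 to 7 it stood at 2.95, 3.73, 3.62, 5.92, 1.79, 2.25 and 4.08 CPM, and in pMCAO replicates 1 to 5 at 4.19, 4.81, 3.29, 1.84 and 4.64 CPM. The 2 groups covered nearly the same range, and the means were 3.48 ± 1.36 CPM in sham (SD, n = 7) and 3.75 ± 1.22 CPM in pMCAO (SD, n = 5). The log2 fold change was 0.41 (SE 0.35), with a 95% interval from -0.34 to 1.17. Cyba rested on 15 to 206 counts per sample and lay between 0.12 and 0.54 on the log2 scale over all alternatives tried.

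Compared per kb of annotated exon, the order of the genes differed between the groups. In sham, Duox2 came first at 30.5 ± 23.5 CPM per kb (SD, n = 7), and its lowest sample, at 7.95 CPM per kb, was above the highest sample of Cyba, at 5.70 CPM per kb, but below the highest of Duoxa2, at 9.29 CPM per kb. Duoxa2, at 3.46 ± 3.65 CPM per kb, and Cyba, at 3.35 ± 1.31 CPM per kb, did not differ beyond their spread in sham. Duoxa1, at 0.276 ± 0.394 CPM per kb, and Duox1, at 0.128 ± 0.122 CPM per kb, came last and did not differ beyond their spread either.

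In pMCAO, Cyba came first at 3.61 ± 1.18 CPM per kb (SD, n = 5), and Duox2 followed at 1.82 ± 1.09 CPM per kb, with overlapping ranges of 1.77 to 4.63 and 0.479 to 3.35 CPM per kb. Duoxa2 came next at 0.407 ± 0.531 CPM per kb, followed by Duoxa1 at 0.0809 ± 0.0562 and Duox1 at 0.0186 ± 0.0416 CPM per kb, with neighbours overlapping.

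Duox2 and its maturation factor were next compared sample by sample. Within the 7 sham samples, where the occlusion plays no part, log2 CPM of Duoxa2 and Duox2 had a Pearson r of 0.832 (exact two-sided permutation p = 0.0208, 0.0625 after Benjamini-Hochberg adjustment over 3 pairs of genes). Spearman rho was 0.786 (exact permutation p = 0.048, adjusted 0.144), so neither passed 0.05 after adjustment. The Duox2 to Duoxa2 r was 0.796 without replicates 6 and 7, the 2 samples farthest from the median of Duox2, and 0.843 after centring each library set on its own mean.

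No relation of Cyba to either gene was detectable over the 7 sham samples. For Duox2 and Cyba r was -0.249 and rho -0.393 (exact permutation p = 0.587 and 0.396, adjusted 0.88 and 0.593), and r turned to 0.174 without the same 2 samples. For Duoxa2 and Cyba r was -0.022 and rho -0.071 (exact permutation p = 0.961 and 0.906, adjusted 0.961 and 0.906), with r of 0.592 without the 2 samples farthest from the median of Duoxa2, so neither relation kept its sign.

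**Figure D3:**
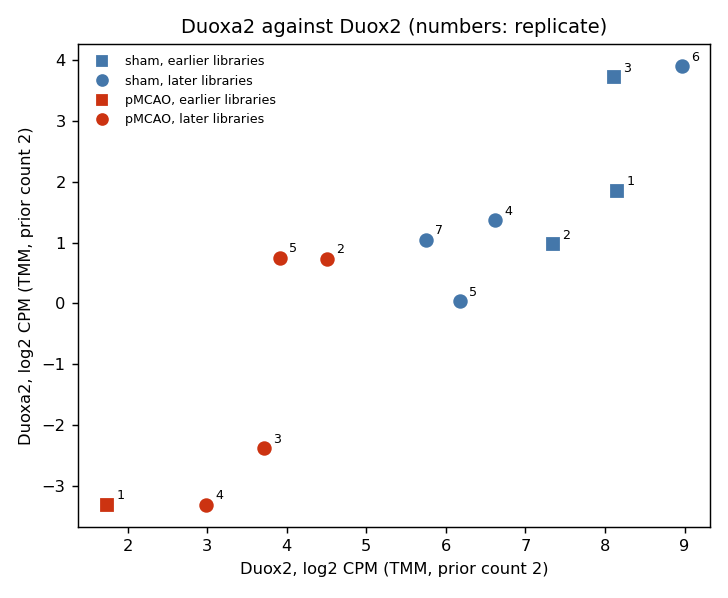
Log2 CPM of Duoxa2 (y axis) against Duox2 (x axis) in the 12 samples, labelled with the replicate number, in blue for sham and red for pMCAO, with squares for earlier and circles for later libraries. Sham replicates 3 and 6 are the high samples for Duoxa2, and pMCAO replicates 2 and 5 reach the Duoxa2 level of the lower sham samples at a lower level of Duox2.

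Duoxa2 took a small share of the reads of the pair. Of the reads counted to Duox2 or Duoxa2, Duoxa2 took between 1.13% and 4.48% in the sham samples. In pMCAO replicates 1 to 5 the Duoxa2 share was 0% (95% Wilson interval 0 to 9.18%), 6.46% (5.12 to 8.12%), 0.702% (0.273 to 1.79%), 0% (0 to 3.77%) and 9.57% (7.16 to 12.7%). The pMCAO samples thus lay on both sides of the sham range, with replicates 2 and 5 above it. These intervals reflect sampling of reads alone, and reads that carry no molecular identifier may be copies of 1 molecule.

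Over all 12 samples, 2 of the 8209 genes with a mean of at least 5 CPM had a higher Pearson r with Duox2 than the 0.896 of Duoxa2. The 5 genes of that set most like Duox2 were Kirrel3 (r 0.90, a cell adhesion protein), RP23-300K5.1 (r 0.90), Ptdss1 (r 0.88, a phosphatidylserine synthase), Hsp90aa1 (r 0.87, a cytosolic chaperone) and Tbc1d9 (r 0.87). Spearman coefficients for these 5 genes lay between 0.804 and 0.902. Each of these r values holds the difference between the groups as well as the spread within them, and they are given with no test. The group means were 13.5 CPM in sham and 4.91 CPM in pMCAO for Kirrel3 and 14.0 and 4.30 CPM for Tbc1d9.

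Within the 7 sham samples alone, 50 of the 8209 genes had a higher r with Duox2 than Duoxa2 did. Of the 5 highest, 4 were Adam22 (r 0.97), a membrane protein of the ADAM family, Phlpp2 (r 0.97), a protein phosphatase, Fuca2 (r 0.95), a fucosidase, and Mcts1 (r 0.95), a translation factor. The log2 fold changes of pMCAO over sham were -0.97 for Adam22, 0.11 for Phlpp2, -0.0039 for Fuca2 and -0.34 for Mcts1. For these genes r is a description over 7 samples, 3 of them earlier and 4 later libraries of unequal depth.

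Duox1 and Duoxa1, the paralogues of the pair, were close to the floor. Duox1 was on 18, 4, 1, 2, 6, 64 and 0 counts in sham replicates 1 to 7 and on 0, 21, 0, 0 and 0 counts in pMCAO replicates 1 to 5, and it did not pass the filter on low counts. Duoxa1 was on 18, 0, 1, 1, 13, 175 and 9 counts in sham and on 0, 18, 15, 3 and 16 counts in pMCAO. Sham replicate 6, the highest sample for Duox2 and Duoxa2, was also the highest for Duox1 at 1.64 CPM and for Duoxa1 at 4.48 CPM. In the limma-voom fit the log2 fold change of Duoxa1 was -1.63, with SE 0.99 and an adjusted p = 0.656.

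The paralogues could share reads with the pair. Duox2 and Duox1 transcripts had 415 stretches of 50 bases in common, of 6862 in Duox2 and 5218 in Duox1. Duoxa2 and Duoxa1 overlap on opposite strands over 682 exonic bases, which are 42.8% of the exonic bases of Duoxa2 and 17.1% of those of Duoxa1, and whether reads were counted by strand was not given in the sources used here. In sham replicate 3 Duoxa2 had 54 counts and Duoxa1 had 1, and in sham replicate 6 they had 578 and 175.

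The other catalytic subunit tested was Cybb, the oxidase of phagocytes. It stood at 2.35 ± 1.69 CPM in sham (SD, n = 7) and 2.15 ± 0.427 CPM in pMCAO (SD, n = 5), and the limma-voom log2 fold change of Cybb was 0.69 (SE 0.52) at an adjusted p = 0.718. Of the 6 catalytic subunit genes listed, 3 had a row in the table and 2 were tested.

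Among the 12 other oxidase partners tested, none passed an unadjusted p of 0.05 in limma-voom in either direction, beside 4.66% of all genes higher and 3.77% lower. Their median log2 fold change was 0.03, beside 0.06 over all genes tested. The Nox1 partners Noxo1, at 0.84 (SE 0.83), and Noxa1, at -0.11 (SE 0.36), had intervals that included 0. So did the phagocyte oxidase subunit Ncf1, at 0.03 (SE 0.59), and the small GTPases Rac1, at 0.03 (SE 0.17), and Rac2, at 0.11 (SE 0.69).

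The remaining partners were BC017643 (Eros, a chaperone of the phagocyte oxidase) at -0.20 (SE 0.22), Nrros, a negative regulator of the same oxidase, at 0.45 (SE 0.66) and Poldip2 at -0.33 (SE 0.28). The organiser-like scaffolds Sh3pxd2a, at 1.13 (SE 0.65), and Sh3pxd2b, at 1.39 (SE 0.85), had the highest log2 fold changes of the list, with adjusted p = 0.645 and 0.660 in limma-voom. With the library set in the fit Sh3pxd2a was at 0.65 (SE 0.34) and Sh3pxd2b at 1.41 (SE 0.76). Sh3pxd2a was also called higher in the later libraries, by 2.69 on the log2 scale (SE 0.78, adjusted p = 0.023, limma-voom).

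**Figure D4:**
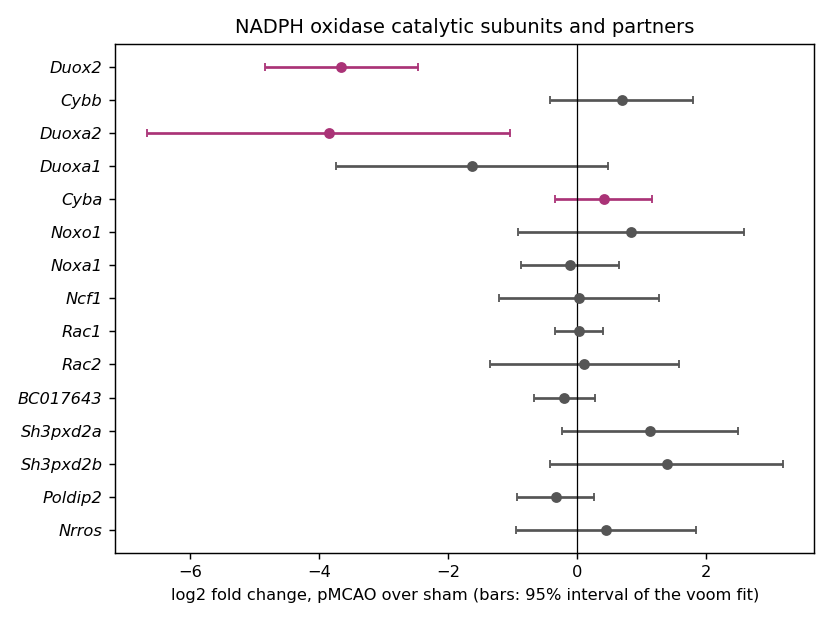
Log2 fold change of pMCAO over sham (x axis) with its 95% interval from the limma-voom fit for 15 tested oxidase genes (y axis), with Duox2, Duoxa2 and Cyba in purple and the other genes in grey. Duox2 is drawn at -3.66, Duoxa2 at -3.86 and Cyba at 0.41, with no test of these 3 genes since they were chosen with this contrast known, and the intervals of the other 12 genes include 0.

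Of 14 enzymes tested that remove hydrogen peroxide or superoxide, 10 had a positive and 4 a negative log2 fold change, with a median of 0.27 beside 0.06 over all genes tested. At an unadjusted p under 0.05 in limma-voom 1 was higher and 1 lower (2 and 0 with the library set in the fit), beside 4.66% and 3.77% of all genes, and 0 passed the adjusted threshold. Catalase (Cat) was at 0.51 (SE 0.20, adjusted p = 0.512), the endoplasmic reticulum peroxidase Gpx7 at -1.28 (SE 0.51, adjusted p = 0.525) and the peroxiredoxin Prdx6 at 0.63 (SE 0.31, adjusted p = 0.602). Without pMCAO replicate 5 Gpx7 was at -0.74, and with the library set in the fit it was at -0.87 (SE 0.43). Gpx7 was also called lower in the later than in the earlier libraries, at -1.39 (SE 0.45, adjusted p = 0.037, limma-voom). None of the 5 peroxidases listed as users of hydrogen peroxide was analysed here.

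Enzymes that supply NADPH, the electron donor of the oxidases, were at a median log2 fold change of 0.16 over 6 genes. At an unadjusted p under 0.05 in limma-voom 2 were higher and 0 lower (1 and 1 with the library set in the fit). Over all genes the shares without the library set were 4.66% and 3.77%, and 0 of the 6 genes passed the adjusted threshold. The cytosolic isocitrate dehydrogenase Idh1 was at 0.75 (SE 0.26, adjusted p = 0.444), the endoplasmic reticulum enzyme H6pd at 1.07 (SE 0.48, adjusted p = 0.583) and the malic enzyme Me1 at -1.30 (SE 0.63, adjusted p = 0.602). Without sham replicate 6 Me1 was at -0.81.

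Of 11 genes tested that, like Duox2, are known to respond to microbes or to IL-22, 10 had a positive log2 fold change. Their median was 0.56 (0.32 with the library set in the fit), beside 0.06 over all genes tested. At an unadjusted p under 0.05 in limma-voom 3 were higher and 0 lower, beside 4.66% and 3.77% of all genes, and 0 passed the adjusted threshold. Saa1, a serum amyloid A protein, stood at 2.47, 8.50, 1.21, 6.79, 9.82, 2.28 and 1.82 CPM in sham and at 29.1, 32.01, 3.801, 17.99 and 15.8 CPM in pMCAO. Only pMCAO replicate 3 of Saa1 lay within the sham range. In limma-voom the log2 fold change of Saa1 was 2.12 (SE 0.69) at an adjusted p = 0.417.

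The antimicrobial lectin Reg3b lay between 144 and 2042 CPM in sham (median 405 CPM) and between 743 and 1839 CPM in pMCAO, and its limma-voom log2 fold change was 1.41 (SE 0.56) at an adjusted p = 0.525. Its relative Reg3g lay between 54.0 and 757 CPM in sham (median 169 CPM) and between 201 and 829 CPM in pMCAO, and its limma-voom log2 fold change was 1.46 (SE 0.59) at an adjusted p = 0.526. Sham replicate 4 was the highest sham sample for both lectins, above every pMCAO sample for Reg3b and within the pMCAO range for Reg3g. Reg3b was also higher in the later than in the earlier libraries, by 1.35 on the log2 scale (SE 0.40, adjusted p = 0.025, limma-voom).

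Receptors and signalling genes upstream of Duox2 were at a median log2 fold change of -0.05 over 16 genes tested. At an unadjusted p under 0.05 in limma-voom 1 was higher and 2 lower, beside 4.66% and 3.77% of all genes. Past the adjusted threshold there were 0. The interferon gamma receptor chains differed in sign, with Ifngr2 at 0.43 (SE 0.17, adjusted p = 0.526) and Ifngr1 at -0.42 (SE 0.19, adjusted p = 0.570). The interleukin 17 receptor Il17ra was at -0.50 (SE 0.21, adjusted p = 0.552).

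The library sets gave a contrast that had no part in choosing the genes. In a limma-voom fit with the group and the library set, Duox2 was at -0.55 in later over earlier libraries (SE 0.56, 95% interval -1.73 to 0.63, adjusted p = 0.521). Duoxa2 was at 0.34 (SE 1.11, 95% interval -2.00 to 2.68, adjusted p = 0.857) and Cyba at -0.24 (SE 0.47, 95% interval -1.23 to 0.74, adjusted p = 0.750). None of the 3 genes was called, in a contrast that called 11.7% of all genes. The sign for Duox2 depended on the tool, at 0.12 with edgeR and 0.16 with DESeq2.

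Since every pMCAO sample lay below every sham sample for Duox2, a lower pMCAO mean within each library set was bound to follow. The values by set therefore describe only the size of the difference. Among the later libraries (4 sham, 4 pMCAO) mean log2 CPM of Duox2 was 6.88 in sham and 3.78 in pMCAO, a difference of -3.10. Among the earlier libraries (3 sham, 1 pMCAO) it was 7.87 and 1.74, a difference of -6.13 that rests on 1 pMCAO sample. With the library set in the limma-voom fit the log2 fold change of Duox2 was -3.50 (SE 0.60), and without the earlier libraries it was -3.00 (SE 0.60), the alternative nearest to 0.

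For Duoxa2 the difference in mean log2 CPM was -2.63 among later and -5.48 among earlier libraries, and with the library set in the fit the log2 fold change was -3.86 (SE 1.30). For Cyba the differences were 0.11 among later and 0.29 among earlier libraries. The fit with the library set called 16 genes (0.111%) between pMCAO and sham.

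**Figure D5:**
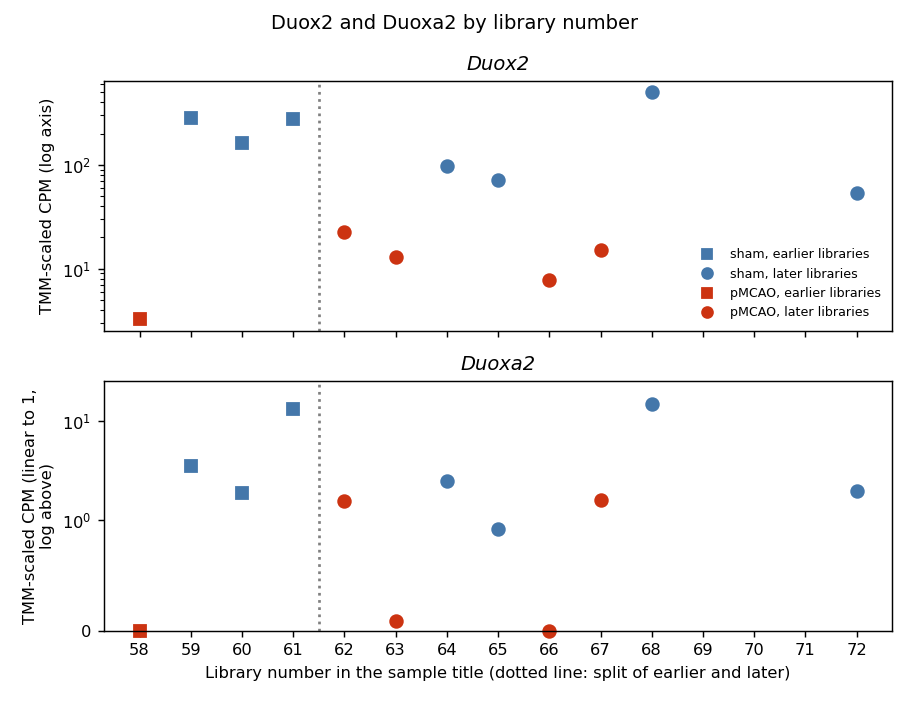
TMM-scaled CPM of Duox2 (upper panel, log axis) and Duoxa2 (lower panel, linear up to 1 and log above) against the library number in the sample title, in blue for sham and red for pMCAO. The dotted line divides earlier from later libraries. On both sides of it all pMCAO samples lie below all sham samples for Duox2, as they do over all 12 samples. Among the later libraries the groups overlap for Duoxa2.

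Cell type markers were summed over each list beside these values, and their part in the Duox2 difference was not tested. The 8 enterocyte markers summed to between 15944 and 28168 CPM in sham (median 23728) and between 18501 and 56505 CPM in pMCAO (median 21948). The pMCAO maximum was replicate 1, the only earlier pMCAO library. At an unadjusted p under 0.05 in limma-voom 3 of the 8 markers were higher and 0 lower (2 and 0 with the library set in the fit), beside 4.66% and 3.77% of all genes. These 3 were Fabp1, Fabp2 and Sis, named after their values were seen. Of the 8 enterocyte markers 6 had a positive log2 fold change and 2 a negative one, Apoa4 at -0.15 and Krt20 at -0.33. In the later libraries 1 of the 8 was called higher and 4 lower. The 6 epithelial markers summed to between 2696 and 5193 CPM in sham (median 4613) and between 2559 and 5952 CPM in pMCAO (median 2999). Their highest pMCAO sample was again replicate 1. The 6 goblet cell markers summed to between 3829 and 47171 CPM in sham and between 6825 and 50494 CPM in pMCAO, and all 6 were called higher in the later libraries. No epithelial or goblet cell marker passed an unadjusted p of 0.05 between the groups.

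Markers of rarer cells overlapped between the groups as well. The summed range in sham and in pMCAO was 10.6 to 85.8 and 19.05 to 48.1 CPM for the 6 Paneth cell markers, and 191 to 2497 and 143 to 2658 CPM for the 5 enteroendocrine markers. It was 16.2 to 732 and 29.98 to 340 CPM for the 5 tuft cell markers. It was 11.2 to 54.3 and 5.21 to 25.9 CPM for the 4 stem cell markers in the table. None of these lists had a member past an unadjusted p of 0.05 between the groups. All 5 enteroendocrine and all 5 tuft cell markers were called higher in the later libraries, as were 1 Paneth cell and 1 stem cell marker.

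The leukocyte list also holds the oxidase partner Rac2. At an unadjusted p under 0.05 in limma-voom, 1 of its 10 genes (Laptm5) was higher and 0 lower. Over all genes the shares were 4.66% and 3.77%. The 8 phagocyte markers in the table summed to between 11.9 and 74.7 CPM in sham and between 17.8 and 38.8 CPM in pMCAO, and 0 of the 6 tested passed. Of the stroma and endothelium list 2 of 10 genes were in the table, at 2.31 to 13.7 CPM in sham and 4.44 to 13.4 CPM in pMCAO, and neither passed. Among markers of position along the small intestine, both lists had mostly positive log2 fold changes, with 4 of 5 proximal genes (median 0.29) and 4 of 5 distal genes (median 0.50) above 0. The distal gene below 0 was Fabp6, at -0.47. At an unadjusted p under 0.05 in limma-voom 1 proximal gene (Cybrd1) was lower and 2 distal genes (Slc51a and Slc51b) were higher. With the library set in the fit 1 proximal gene was lower (Cybrd1), 1 proximal gene higher (Lct) and 1 distal gene higher (Slc51b). Cybrd1 was close to the floor, with 0 counts in 2 of 5 pMCAO samples. These genes were again named after their values were seen. Over all genes 3.77% were lower and 4.66% higher at that p without the library set. Whether position bears on Duox2 was not tested.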

How the data were processed

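RNA from sorted EpCAM+ cells was depleted of ribosomal RNA by cleavage and sequenced as paired ends. According to the methods and labels, the authors aligned reads to GRCm38 with STAR and assigned them to genes with featureCounts. The deposited counts are whole numbers per gene, not normalised. The deposited CPM values are those counts scaled to the table total, which held within 0.001 for 190260 of 190260 values, and they were used for this check alone. The deposited table lists genes that reach at least 0.5012 CPM in 4 or more samples. Its fold change, average expression, p-value and FDR columns hold the authors' own comparison and were not used. The study corrected for the day of tissue collection, which the labels do not give, so the group stood alone here.

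Counts were filtered with filterByExpr (minimum count 10; 14462 genes kept, 1393 removed), scaled with TMM factors and fitted with limma-voom in R 4.3.3 (edgeR 4.0.16, limma 3.58.1), with Benjamini-Hochberg adjustment over all genes tested. A gene was called at an adjusted p up to 0.05 and a log2 fold change of 1 or more in either direction. Log2 CPM used a prior count of 2. The library sets were split after library 61, a split known from an earlier analysis. Correlations used exact permutation of pairings (scipy 1.17.1) over 3 of the 6 planned pairs, as Nox1 was not analysed. Alternatives were edgeR, DESeq2 (1.42.0), limma-trend, other scalings, filters and covariates, and leaving samples out. The fits were tested on simulated data.

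Members and gene lists were chosen with earlier results of these data known. Genes named were the members, all oxidase subunit and partner genes, up to 3 genes of smallest p from each other list, and the 5 genes most like Duox2 over all and over sham samples. Values of 2 genes that this rule names are not reported here. Marker genes beside these were named as checks. No 2 samples of the same group agreed within sampling noise. The labels call the samples biological replicates and do not say whether each is 1 animal, so p-values measure the spread between these samples. Counts limit precision for Duoxa2, Duox1 and Duoxa1, and floors and intervals cover counting error only.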

Additional observations from a re-analysis of the deposited data

Results flagged for a closer look

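Among 20 sets of values tested for a sample far from the rest of its group, 3 were marked. The sets hold the same values as CPM and again as log2 CPM. They are not independent, so the chance rate of about 1 in 20 cannot be set against this count. Duoxa1 in sham replicate 6 stood at 4.48 CPM, far above the next sham sample at 1.43 CPM. Duox1 in pMCAO replicate 2 stood at 0.490 CPM (-0.76 on the log2 scale) and was marked on both scales. The other 4 pMCAO samples were at 0 counts, and a group with only 1 value above 0 is always marked by this test. Duox2 itself was not marked in either group.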

How the results depend on the processing

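The log2 fold change of pMCAO over sham kept its sign for Duox2 (-4.07 to -3.00), Duoxa2 (-4.78 to -2.83) and Cyba (0.12 to 0.54) in every alternative run, left-out samples included. Every pMCAO sample lay below every sham sample for Duox2, so its sign was bound to hold when samples were left out. For Duox2 these ranges therefore describe only the size of the difference. Leaving out 1 sample gave -3.97 to -3.39 for Duox2, -4.78 to -2.91 for Duoxa2 and 0.25 to 0.54 for Cyba. The count of genes called between pMCAO and sham, 0 in the limma-voom fit, was 70 with DESeq2, 1 with limma-trend, 18 with sample quality weights, 16 with the library set, 156 with the library number as covariates, and 0 to 17 with 1 sample left out (5 without sham replicate 7, 8 without pMCAO replicate 1, 17 without pMCAO replicate 3). The cause was not tested.

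With the replicate number as a block, 243 genes were called and the log2 fold change was -3.69 for Duox2, -2.83 for Duoxa2 and 0.24 for Cyba. Same-numbered samples did not deviate together throughout (correlations of deviations 0.40, -0.24, -0.16, 0.16 and 0.082 for replicates 1 to 5). Of the 5 pairs 1 (replicate 1) correlated best with its own number. In replicates 2 and 3 the sham library was earlier and the pMCAO library later, so this check cannot exclude a shared collection day. The labels give no more than a shared number, and no pairing was used.

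Between later and earlier libraries 1687 genes were called, against 2928 with DESeq2, 2979 with limma-trend, 716 in sham samples alone and 703 to 2205 with 1 sample left out (703 without pMCAO replicate 1, 1000 without sham replicate 1). The value changed sign for Duox2 with edgeR (0.12) and DESeq2 (0.16), and for Duoxa2 in sham samples alone (-0.099) and without sham replicate 6 (-0.88). With 1 sample left out it lay between -1.04 and -0.24 for Duox2, between -0.88 and 0.95 for Duoxa2 and between -0.32 and -0.11 for Cyba. Within sham, r lay between 0.73 and 0.88 for Duox2 and Duoxa2, between -0.78 and 0.0095 for Duox2 and Cyba, and between -0.61 and 0.33 for Duoxa2 and Cyba, with sign changes without sham replicate 6 for both pairs with Cyba, and for Duoxa2 and Cyba also without replicates 2 (0.018), 4 (0.10) and 7 (0.040). Saa1 passed the adjusted threshold with DESeq2 (adjusted p = 0.032) and with limma-voom without pMCAO replicate 3 (adjusted p = 0.022). In all, 466 of 491 alternative values were rated the same as the main value. For tested results this means the same direction and side of the threshold. For Duox2, Duoxa2 and Cyba between pMCAO and sham, which have no p, it means the sign alone. For counts of genes called it concerns the size of the count. Depth limits the low-count genes: Duoxa2 was at 0 counts in 2 of 5 pMCAO samples, and a fold change of such a gene depends on the prior count.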
